A study of Mus musculus with 30 samples.

Results

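Enteric glia, a minor cell population of the gut wall, express *Sox10*. The libraries described here set RNA pulled down with ribosomes of *Sox10*-expressing cells against the RNA of the whole muscle layer in mice without surgery. The comparison took the 3 naïve libraries of ribosome-bound RNA (*RiboTag*) and the 3 naïve libraries of total RNA from the small bowel muscularis externa (*ME*), joined by gene symbol. This gave 21134 shared symbols, of which 14753 had enough counts to be tested. The whole series lists 30 samples, and for the naïve *RiboTag* group the labels list 4 samples where the count table holds 3 libraries.

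*RiboTag* libraries came from a cross of B6 Tg(Sox10-icre/ERT2)388Wdr/J with B6N.129 Rpl22tm1.1Psam/J mice, in which tamoxifen activates a Cre driven by *Sox10* and the ribosomal protein Rpl22 then carries an HA tag, so that an anti-HA pulldown recovers ribosomes of *Sox10*-expressing cells. By the study's methods these mice also carried a tdTomato reporter, received tamoxifen injections in the weeks before the experiment, and were adult males where they underwent surgery. Naïve *ME* libraries were inputs from cleared lysate and carry another Cre line on their label, B6.Cg-Tg73.12Mvs/J(Gfap-cre), crossed with the same Rpl22tm1.1Psam/J allele, so that here fraction, Cre driver and count table cannot be told apart. All 6 libraries therefore share the floxed *Rpl22* allele and the absence of surgery, and differ in Cre driver as well as in fraction. The label of the naïve *ME* libraries names no tamoxifen-inducible Cre, so tamoxifen treatment may differ between the fractions as well. A later pair of groups, taken 24 h after intestinal manipulation (IM24h, a surgical handling of the bowel that provokes inflammation of its muscle layer), holds 4 libraries of each fraction, all labelled with the *Sox10*-driven line, and was used to look at the naïve calls in other libraries. The study gives its RNA-Seq replicates as mice, but no label ties a library to an animal, so p-values measure the spread between these libraries.

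Enteric glia are neural crest derivatives that surround enteric neurons in the myenteric plexus and run along nerve fibres into the muscle. They are marked by the transcription factor Sox10 and the calcium-binding protein S100b and, in a fraction of cells, the intermediate filament Gfap, and they buffer potassium, break down extracellular ATP and exchange signals with neurons, macrophages and muscle. A ribosome pulldown enriches the mRNAs of the tagged cells over those of the tissue, but it also carries some RNA from untagged cells, so every value is an enrichment and not a level in pure glia. In bulk tissue RNA, fewer cells of a type and less RNA per cell cannot be told apart.

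Total estimated counts ran from 4831855 to 4938879 in *RiboTag* and from 6603170 to 9862170 in *ME*, and 16879 to 18754 against 20385 to 21803 genes reached 1 count. A ribosomal RNA repeat annotated as AY036118 took 2.68% to 13.99% of the counts in *RiboTag* and 16.12% to 33.49% in *ME*, the highest share being in *ME* library 2. Mitochondrial transcripts took 5.04% to 7.86% and 13.74% to 17.98%. Libraries were scaled by TMM, a trimmed mean of log ratios, and levels are given as CPM, counts scaled to a common library size. Because the libraries are 3′ end sequenced, levels are not divided by transcript length, and they are compared here between fractions and not between genes.

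Of the 14753 genes tested, 1575 (10.7%) were higher and 1287 (8.72%) lower in *RiboTag* than in *ME*, at an adjusted p under 0.05 and more than 2-fold by edgeR's quasi-likelihood test with Benjamini-Hochberg adjustment. The median log2 difference over all genes tested was -0.01. Values of the libraries did not overlap for 3391 genes (23.0%) with all *RiboTag* libraries above and for 3656 (24.8%) with all below *ME*. The higher count depended on the number of *ME* libraries: it was 828 without *ME* library 1, 984 without library 2 and 874 without library 3. Scaling by library total alone, which moves the median of all genes to 0.72, gave 4350 higher and 337 lower genes, so that the lower genes were 7.19% of the calls instead of 45%.

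**Figure D1:**
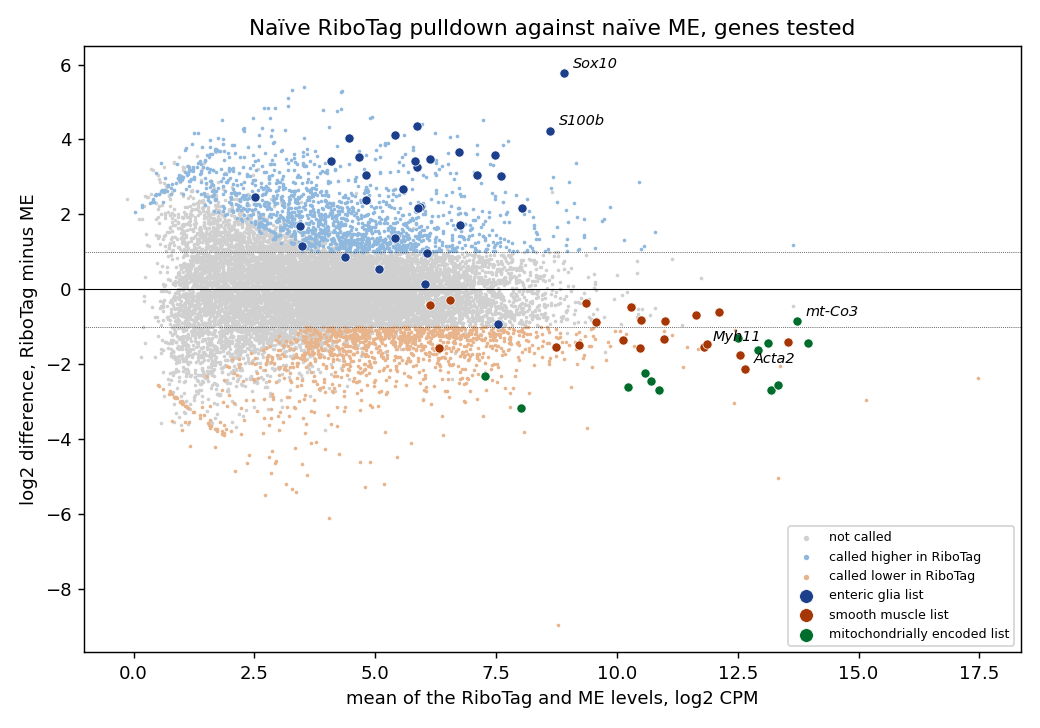
Each point is 1 gene tested, with its average level (log2 CPM, x axis) and its log2 difference between naïve *RiboTag* and naïve *ME* (y axis), coloured by call, and genes at or under 3 counts in every library of 1 fraction are drawn at their bound. The 1575 higher and 1287 lower genes lie on both sides of 0, and *Sox10* and *S100b* lie far above it.

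Both defining markers of the tagged cells were among the most enriched genes. *Sox10*, the neural crest transcription factor whose promoter drove the Cre, stood at 659.6, 1387.1 and 763.9 CPM in the *RiboTag* libraries and at 19.6, 16.5 and 15.7 CPM in the *ME* libraries. The lowest *RiboTag* library thus lay far above the highest *ME* library, and the means were 937 ± 393 and 17.2 ± 2.07 CPM (SD, n = 3 each). This is a log2 difference of 5.76 ± 0.34 (SE, edgeR adjusted p = 4.2e-05), or 54.2-fold. *S100b* stood at 954.6, 574.3 and 708 CPM against 39.7, 36.1 and 43.5 CPM. Its groups did not overlap either, with a log2 difference of 4.23 ± 0.23 (edgeR adjusted p = 4.2e-05), or 18.7-fold. The smallest p that an exact permutation test over 3 and 3 libraries can give is 0.1, and both genes reached it. Any gene without overlap reaches it, which were 23.0% of all genes with *RiboTag* above and 24.8% with *RiboTag* below *ME*.

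The enteric glia list of 30 markers followed them. All 30 were tested, 24 were called higher and 6 had no call, and the median log2 difference was 2.85 against -0.01 over all genes. The summed level of the list was 4510 to 5291 CPM in *RiboTag* and 762 to 940 CPM in *ME*. *Gfap* was at 175.3, 98.3 and 112.0 against 11.9, 12.5 and 10.4 CPM, a log2 difference of 3.47 ± 0.26 (adjusted p = 0.000104). Every pulldown library was above every total RNA library.

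Further members of the list were called. *Sfrp5*, a secreted Wnt antagonist, had values of 104.8, 108.4 and 118.1 CPM against 5.18, 5.35 and 5.52 CPM, a log2 difference of 4.36 ± 0.19. *Lgi4*, a secreted ligand that Schwann cells need for myelination, stood at 206.5, 193.2 and 194.1 against 19.1, 12.5 and 15 CPM (log2 difference 3.66 ± 0.20). *Entpd2*, the ectonucleotidase that hydrolyses ATP around enteric glia, was higher by 3.42 ± 0.22, and *Gpr37l1*, an orphan G protein-coupled receptor of glia, by 3.04 ± 0.18 on the log2 scale. *Cadm4*, an adhesion molecule by which glia contact axons, was at 125.7, 62.6 and 54.5 against 5.94, 3.79 and 4.11 CPM (log2 difference 4.11 ± 0.39), with library 1 highest. The sodium channel *Scn7a* was higher by 2.18 ± 0.17.

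Not every marker of the list was called. The 6 members without a call were *Cdh19*, *Ngfr*, *Matn2*, *Atp1b2*, *Cryab* and *Art3*. *Ngfr*, the low-affinity neurotrophin receptor, had a log2 difference of 0.97 (adjusted p = 0.0253), just inside 2-fold, and *Cdh19*, a Schwann lineage cadherin, one of 1.16 (adjusted p = 0.0897). *Cryab*, a small heat shock protein that smooth muscle also expresses, went the other way, with 97.9, 157.4 and 131.2 CPM in *RiboTag* and 264.5, 157.6 and 310.3 CPM in *ME*, a log2 difference of -0.92 (adjusted p = 0.0352). *Fabp7*, a brain-type fatty acid binding protein, was called at 1.69 ± 0.53 (adjusted p = 0.0455), but the call was lost under 8 of 15 alternatives.

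**Figure D2:**
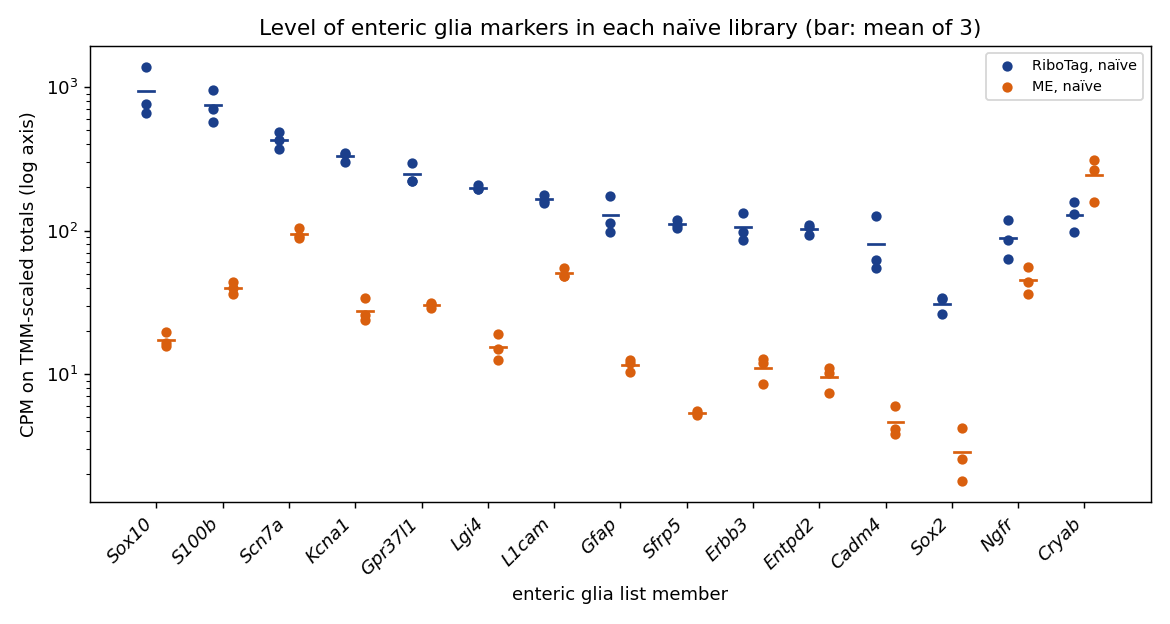
Levels of glial markers in each naïve library (CPM, log10 axis), with *RiboTag* and *ME* libraries as separate points for each gene. *Sox10* spans 659.6 to 1387.1 CPM in *RiboTag* and 15.7 to 19.6 CPM in *ME*, while *Cryab* is the marker shown whose *RiboTag* libraries lie below.

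The myelin and Schwann cell list was enriched as well, although the small bowel muscle layer holds few myelinated fibres. Of its 12 members 7 were tested and 6 were called higher, with a median of 3.06. *Ncmap* was the least stable of these calls (2.62, adjusted p = 0.0498 by edgeR), lost under 12 of 14 alternatives, DESeq2 among them. *Mbp*, myelin basic protein, stood at 128.4, 129.5 and 149.2 against 13, 15.6 and 20.2 CPM (log2 difference 3.06 ± 0.21, adjusted p = 8.2e-05). *Mal*, a proteolipid of myelin membranes, was higher by 3.48 ± 0.36 and *Cnp*, a phosphodiesterase of myelinating cells, by 2.02 ± 0.17. *Pmp22* was not called, at -0.37 (adjusted p = 0.139), and its sign turned to 0.37 under scaling by library total.

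The DNA upstream of these genes is shown because most of the glial list was called higher and Sox proteins bind short A/T-rich elements. The 250 bases before the RefSeq start (GRCm38.p6) were searched for ACAAAG and ACAATG on both strands, that is also for CTTTGT and CATTGT. RefSeq windows were at hand for 21 of the 30 glial markers, members without a call among them. A match stood in 3 of them, in *Sox2*, *Cadm4* and *Col20a1*, and *S100b* is printed as a strongly enriched gene without one. Capitals mark the matches.
*Sox2*, chr3:34649745-34649994, + strand: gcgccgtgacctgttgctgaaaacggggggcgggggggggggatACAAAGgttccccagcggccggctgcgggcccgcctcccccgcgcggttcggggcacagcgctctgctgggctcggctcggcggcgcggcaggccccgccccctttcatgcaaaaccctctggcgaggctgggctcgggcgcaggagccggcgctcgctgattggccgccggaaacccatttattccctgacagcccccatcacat
*Cadm4*, chr7:24481773-24482022, + strand: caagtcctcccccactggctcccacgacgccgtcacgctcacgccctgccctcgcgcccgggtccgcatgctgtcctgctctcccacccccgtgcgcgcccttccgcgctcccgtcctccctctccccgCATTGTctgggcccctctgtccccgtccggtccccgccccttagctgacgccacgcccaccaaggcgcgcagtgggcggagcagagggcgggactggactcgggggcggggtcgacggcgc
*Col20a1*, chr2:180986285-180986534, + strand: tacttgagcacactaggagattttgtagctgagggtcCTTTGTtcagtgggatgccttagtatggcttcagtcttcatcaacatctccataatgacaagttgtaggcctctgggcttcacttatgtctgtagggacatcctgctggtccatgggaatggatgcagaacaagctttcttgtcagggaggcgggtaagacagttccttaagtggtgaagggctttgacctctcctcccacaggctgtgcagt
*S100b*, chr10:76253586-76253835, + strand: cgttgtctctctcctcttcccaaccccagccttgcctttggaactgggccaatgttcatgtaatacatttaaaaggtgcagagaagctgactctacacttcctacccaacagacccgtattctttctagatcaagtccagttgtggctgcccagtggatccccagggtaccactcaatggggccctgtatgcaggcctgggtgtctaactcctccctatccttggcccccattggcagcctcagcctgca

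The share with a match was 14.3% for the glial markers, 18.2% of 939 windows of genes called higher, 17.4% of 895 windows of genes called lower and 16.3% of 8450 windows of genes not called. All 27025 RefSeq windows gave 25.5%. These are counts of letters in a short window and do not locate binding. For the genes printed, the levels were as follows. *Sox2*, a transcription factor of neural progenitors and glia, stood at 33.6, 33.2 and 26.1 CPM in *RiboTag* and 4.17, 1.78 and 2.57 CPM in *ME* (log2 difference 3.41 ± 0.37). *Col20a1*, a collagen of the fibril-associated kind, stood at 43.3, 43.5 and 37.7 against 2.27, 2.23 and 2.95 CPM (log2 difference 4.04 ± 0.28). In both the fractions were wide apart.

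Transcription factors of glia and neural crest were enriched in part. Of 18 tested, 11 were called higher and 7 had no call, with a median log2 difference of 2.16, and *Sox10*, *Sox2*, *Foxd3* and *Rxrg* among them also belong to the glial list. *Pou3f1*, a POU factor of promyelinating Schwann cells, was at 31, 26 and 30.3 CPM against 0.758, 0.891 and 1.41 CPM (log2 difference 4.79 ± 0.38, adjusted p = 0.000124). *Sox8*, the closest relative of Sox10 together with Sox9, had a log2 difference of 3.37 ± 0.53, *Zeb2*, a zinc finger repressor of neural crest cells, 2.5 ± 0.24, and the pair *Sox5* and *Sox6* 1.98 ± 0.35 and 1.52 ± 0.20. *Foxd3*, a crest specifier, was called at 2.39 ± 0.33. *Tfap2a*, a crest factor at under 6 CPM in every library, was called at 3.87 ± 1.17, but lost the call under 6 of 15 alternatives.

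Receptors for the growth factors of the enteric nervous system came next. Of 15 genes of the neuregulin, endothelin and GDNF systems tested, 5 were called higher and 1 lower, and the median was 0.72. It ran from 0.29, without *ME* library 3, to 0.95 when single libraries were left out and was 1.51 under scaling by library total. *Erbb3* and *Ednrb* also belong to the glial list. *Erbb3*, the neuregulin receptor of the Schwann and enteric glial lineage, stood at 133.1, 86.3 and 97.3 against 12, 12.7 and 8.47 CPM (log2 difference 3.26 ± 0.25, adjusted p = 0.000119). *Gfra1*, the GDNF co-receptor, was at 157.1, 160.7 and 187.1 against 18.5, 25.2 and 15.4 CPM (log2 difference 3.11 ± 0.22). The pulldown libraries were clear of the total RNA libraries in both.

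The neurturin co-receptor *Gfra2* was higher by 2.48 ± 0.25 and the artemin co-receptor *Gfra3* by 3.79 ± 0.84, while *Gfra4*, the persephin co-receptor, was lower, with a log2 difference of -1.33 ± 0.24. *Ret*, the signalling receptor that these co-receptors share and a neuronal gene in the gut, was not called, with 38.8, 68.2 and 21.5 CPM against 20.0, 19.6 and 23.1 CPM (log2 difference 1.03, adjusted p = 0.0753). *Gdnf*, the ligand, had a log2 difference of -1.33 (adjusted p = 0.0584). *Ednrb*, the endothelin receptor needed for gut colonisation by crest cells, was called at 1.38 ± 0.32 (adjusted p = 0.0136), with 32.8, 81.6 and 69.3 against 25, 24.5 and 21.0 CPM, and lost the call under 4 of 15 alternatives. Among 5 adrenergic receptors tested, the α1A receptor *Adra1a* was called higher (1.81 ± 0.47, lost under 5 of 15 alternatives) and the β3 receptor *Adrb3*, a receptor of fat and smooth muscle, lower (-1.94 ± 0.40). *Adra2a* was not called, at -1.08 (adjusted p = 0.138).

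Channels differed in direction. In the list of gap junction proteins and potassium channels 9 genes were tested, 5 were called higher and 2 lower, with a median of 2.33. Leaving out 1 library lowered this median to 0.82 without *ME* library 3, 1.09 without *ME* library 2, 1.37 without *ME* library 1 and 1.55 without *RiboTag* library 1. Under scaling by library total the 5 higher calls were kept and the 2 lower calls were lost. *Gjc3*, *Kcna1* and *Kcnj10* also belong to the glial list. *Kcnmb1* is also in the smooth muscle list and *Kcnn3* in that of Pdgfra-positive interstitial cells. *Kcna1* and *Kcna6*, voltage-gated potassium channels, were higher by 3.58 ± 0.19 and 3.36 ± 0.20, with *Kcna1* at 301.7, 340.8 and 345.8 against 25.7, 33.7 and 23.6 CPM. *Kcnj10*, the inwardly rectifying channel of potassium-buffering glia, was higher by 3.53 ± 0.34 and *Gjc3*, a connexin of Schwann cells and oligodendrocytes, by 3.06 ± 0.29. *Kcnmb1*, the β1 subunit of smooth muscle BK channels, was lower, with a log2 difference of -1.58 ± 0.29, as was *Kcnn3*, the SK3 channel of Pdgfra-positive interstitial cells, at -1.41 ± 0.38. The call for *Kcnn3* was lost under 6 of 15 alternatives. *Gja1*, connexin 43, which enteric glia use in calcium waves and which smooth muscle and stroma also express, did not reach 2-fold, with 136.5, 128.4 and 153.3 CPM in *RiboTag* against 246.6, 311.1 and 233.6 CPM in *ME* (log2 difference -0.92, adjusted p = 0.00515). Each pulldown library was thus below each total RNA library.

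Cell adhesion genes of neural tissue were higher in 9 of 20 tested and lower in 1, with a median of 1.23. The median was 1.98 under scaling by library total, where 9 of the 10 calls were kept. It ran from 0.83 to 1.34 when single libraries were left out. *L1cam*, *Cadm4* and *Cdh19* also belong to the glial list. *Ncam1*, the neural cell adhesion molecule, was at 1011.9, 953.4 and 814.0 against 200.2, 172.5 and 188.8 CPM (log2 difference 2.31 ± 0.16, adjusted p = 8.2e-05). *Cdh2*, N-cadherin, was higher by 2.03 ± 0.22, *L1cam* by 1.71 ± 0.15 and *Nlgn3*, a neuroligin, by 2.34 ± 0.53. *Cntn1*, a contactin of neurons, was lower, with a log2 difference of -1.23 ± 0.35, a call lost under 7 of 15 alternatives.

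Matrix and lipid genes gave few calls. Of 14 laminin, nidogen and type IV collagen genes 2 were called higher and 2 lower, near the 10.7% and 8.72% of all genes. The median of -0.36 ran from -0.4 to -0.18 when single libraries were left out and turned to 0.38 under scaling by library total. *Col4a4* was higher (2.28 ± 0.28), and *Col4a1* and *Lamb2* were lower (-1.20 ± 0.15 and -1.21 ± 0.19). Among 32 genes of cholesterol and fatty acid synthesis 2 were higher and 3 lower, with a median of -0.01 that became 0.74 under that scaling. The lower count is near the 8.72% of all genes. The 3 lower genes were the synthase *Fasn* (-1.32 ± 0.24), the desaturase *Scd1* (-2.09 ± 0.24) and the elongase *Elovl6* (-1.72 ± 0.36). In the same libraries 7 of 7 adipocyte markers tested were lower, with a median of -3.37, and their part in these values was not tested. *Srebf2*, the regulator of cholesterol synthesis, was higher by 1.03 ± 0.17, a call lost under 6 of 15 alternatives.

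Secreted carriers differed in direction. *Apoe*, a lipid carrier made by glia and macrophages, was at 3221.1, 2058.0 and 2177.5 CPM in *RiboTag* and 349.5, 333.0 and 335.8 CPM in *ME*, a log2 difference of 2.87 ± 0.22 (adjusted p = 0.000101). *Apod*, a lipocalin of Schwann cells and other glia, was at 299.8, 380.9 and 443.6 against 31.3, 23.8 and 22.8 CPM, a log2 difference of 3.84 ± 0.22. Neither gene's fractions overlapped. *Apoc1* (-1.81, adjusted p = 0.22) and *Clu* (-0.59, adjusted p = 0.201), which code for further apolipoproteins, were not called, and *Clu* turned to 0.11 under scaling by library total. In this list of 13 tested 3 were higher and 2 lower, against 10.7% and 8.72% of all genes. The median of the list was -0.58, or 0.14 under scaling by library total, where 3 of the 5 calls were kept. That median ran from -0.89 to -0.38 when single libraries were left out. *Sparc*, a matrix glycoprotein, was higher by 1.06 ± 0.20, a call lost under 4 of 15 alternatives. *Sparcl1* and the carboxypeptidase *Cpe* were lower, at -1.54 ± 0.22 and -1.34 ± 0.15, each call lost under 1 of 15 alternatives. Of 19 immediate early genes, which mark acute cell activation, 0 were called by edgeR or DESeq2, although 1 higher and 4 lower had an unadjusted p under 0.05.

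**Figure D3:**
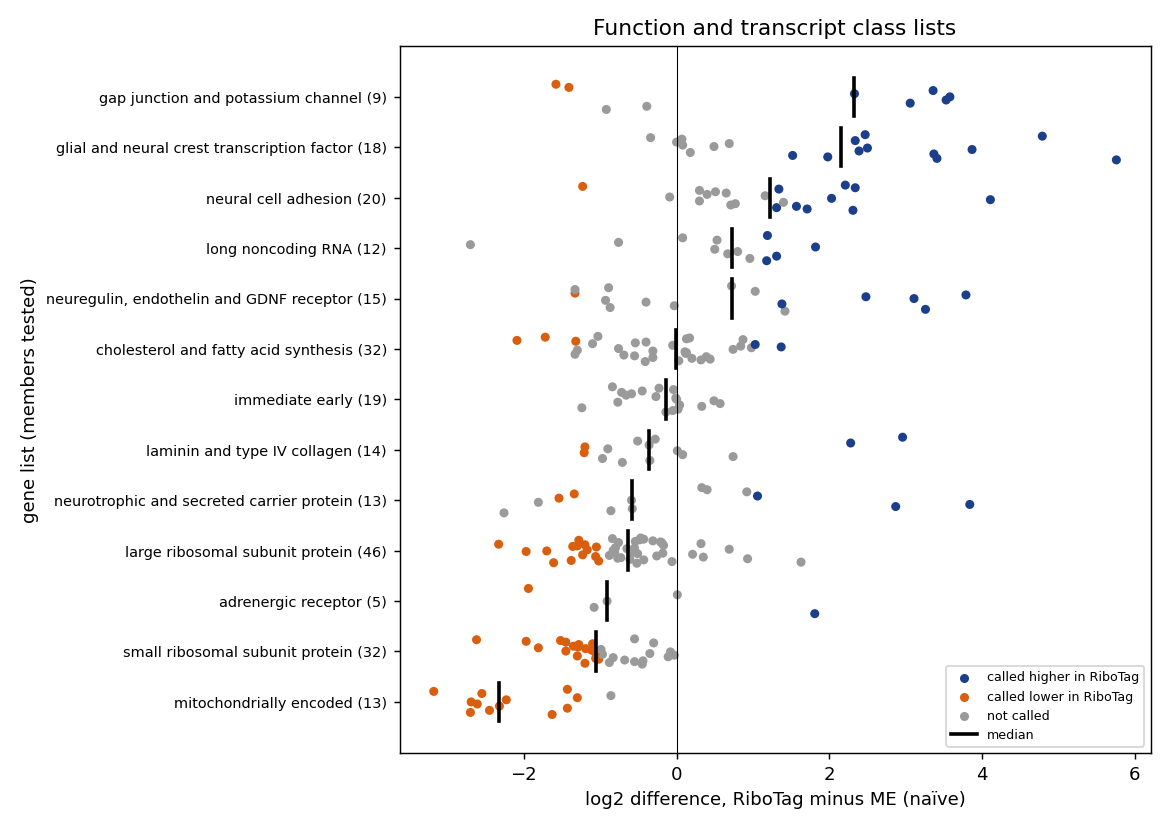
Log2 differences between naïve *RiboTag* and naïve *ME* for the members of each list of gene functions (x axis), 1 point per gene tested, with the median of each list marked. The transcription factor, channel and adhesion lists have medians of 2.16, 2.33 and 1.23, of which that of the channels ran from 0.82 to 2.5 when single libraries were left out, while the mitochondrially encoded list has one of -2.32.

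Further genes were seen among the 25 protein-coding genes with the highest ratio, a set chosen after the values were seen and limited to called genes whose libraries did not overlap and that had a mean of at least 10 CPM in the higher fraction. *Metrn*, meteorin, a secreted factor of glial progenitors, stood at 348.6, 212.3 and 299.5 against 15.3, 6.91 and 14.4 CPM (log2 difference 4.53 ± 0.33). *Olfml2a*, an olfactomedin-like extracellular protein, had 122.1, 117.9 and 118.7 against 4.42, 5.13 and 7.32 CPM (log2 difference 4.40 ± 0.23). *Megf10*, an engulfment receptor of astrocytes, was higher by 4.32 ± 0.35. The set also held *Col9a2* at 4.17 ± 0.26, *Col11a1* at 4.11 ± 0.23 and *Col18a1*, the source of endostatin, at 3.95 ± 0.18. *Col18a1* was also abundant, at 377.6, 468.6 and 356.1 against 24.4, 27.2 and 26.3 CPM. *Fxyd3*, a regulator of the sodium pump, was higher by 4.06 ± 0.26, *Paqr6*, a progestin receptor family member, by 3.85 ± 0.26 and *Chadl* by 4.57 ± 0.51. *Acp4*, an acid phosphatase, had 29.0, 7.70 and 4.58 CPM in *RiboTag* and no count in any *ME* library, which makes it at least 28.8-fold higher against a floor of 3 counts per library.

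The 25 protein-coding genes with the lowest ratio were chosen in the same way and under the same limits, which left out genes such as *Cd68* that had a lower ratio and fewer reads. *Fth1*, ferritin heavy chain, was at 66.6, 175.1 and 45.2 CPM in *RiboTag* against 1312.6, 940.9 and 1471.4 CPM in *ME* (log2 difference -3.70 ± 0.48), although retrocopies of this gene can take a part of its reads. *Timm8b*, a chaperone of the mitochondrial intermembrane space, was lower by a log2 difference of -5.28 ± 0.67 and *Plpp1*, a lipid phosphatase, by -4.62 ± 0.71. *Mgp*, matrix Gla protein of muscle and stroma, had -3.16 ± 0.38 and the peptidase *Enpep* -3.65 ± 0.81. *Tmigd1*, at 22.1, 12.9 and 3.72 CPM in *ME*, had no count in *RiboTag* libraries 1 and 2.

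Markers of neurons were higher or without a call, with 1 exception. Of 34 tested 10 were called higher and 1 lower, and the median was 0.30, which ran from -0.13 to 0.56 when single libraries were left out and was 1.05 under scaling by library total. *Uchl1*, the neuronal ubiquitin hydrolase PGP9.5, stood at 566.4, 509.5 and 342.2 against 175.2, 156.2 and 163.6 CPM (log2 difference 1.52 ± 0.21, adjusted p = 0.00124). *Nos1*, neuronal nitric oxide synthase of inhibitory motor neurons, was at 245.2, 337.5 and 141.8 against 74.8, 65.3 and 65.5 CPM (log2 difference 1.82 ± 0.29). In both genes the pulldown was above the total RNA, and *RiboTag* library 3 was the lowest of the pulldown libraries.

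The same library had the lowest summed level of the neuronal list, 1896 CPM against 3066 and 4075 CPM in libraries 1 and 2 and 1821 to 2026 CPM in *ME*. *Prph*, peripherin, was higher by 1.93 ± 0.32, and *Grp*, gastrin-releasing peptide, was lower, at -1.61 ± 0.44. Calls for *Nefm* and *Stmn3* were lost under 8 and 7 of 15 alternatives and that for *Grp* under 5. The part of neuronal RNA in the enrichment of genes that neurons share with glia, such as *L1cam*, *Ncam1* and *Gfra2*, was not tested.

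Smooth muscle makes up the bulk of the tissue. Of the 20 markers 11 were called lower and 9 had no call, with a median of -1.34, and summed to 25355 to 35129 CPM in *RiboTag* against 69989 to 77002 CPM in *ME*. *Acta2*, smooth muscle actin, was at 2303.1, 1957.9 and 2937.0 against 10303.1, 9769.0 and 11145.3 CPM (log2 difference -2.12 ± 0.21, or 4.34-fold lower). *Myh11*, smooth muscle myosin, was at 1512.0, 1608.8 and 2320.7 against 4849.6, 6232.6 and 4774.9 CPM (log2 difference -1.54 ± 0.23). *Tpm1*, a tropomyosin, was lower at -1.76 ± 0.20. All pulldown libraries were below all total RNA libraries in these genes. Under scaling by library total the median of the list was -0.6 and 2 of the 11 calls were kept, while the 24 glial calls were all kept.

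Markers of fat, connective tissue and vessel-associated cells differed in how many were called lower. All 7 adipocyte markers tested were called lower, with a median of -3.37 (-2.72 without *RiboTag* library 1), and remained so under scaling by library total. *Adipoq*, adiponectin, was absent from *RiboTag* library 1 and at 10.7 and 3.63 CPM in the others, against 62.2, 59.3 and 85.0 CPM in *ME* (log2 difference -3.82 ± 0.82). Fibroblast markers were lower in 6 of 13 and higher in 1, with a median of -0.90, which was -0.2 under that scaling, where 4 of the 7 calls were kept. *Lum*, the proteoglycan lumican, was at 12.8, 10.9 and 19.1 against 103.5, 114.8 and 117.7 CPM (log2 difference -2.97 ± 0.24). *Dcn*, decorin, was lower at -1.84 ± 0.19, and the microfibrillar gene *Mfap4* was the member called higher.

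Pericyte markers were lower in 3 of 6, among them *Rgs5* (-1.59 ± 0.23) and the potassium channel subunit *Abcc9* (-1.88 ± 0.28), and their median of -1.06 was -0.33 under scaling by library total, where 1 of the 3 calls was kept. *Pdgfra*, the receptor that names the Pdgfra-positive interstitial cells, was lower at -1.52 ± 0.18. Of the 4 markers of these cells tested *Kcnn3* was also lower and *Adra1a*, at 1.81 ± 0.47, was higher. Under scaling by library total 1 of these 3 calls was kept, and the median of the list went from -1.3 to -0.54. Of 5 markers of interstitial cells of Cajal, the pacemaker cells of the gut, 1 was called lower, *Thbs4* at -1.92 ± 0.33, and the defining *Kit* and *Ano1* were not called, at -0.92 (adjusted p = 0.0136) and -0.62 (adjusted p = 0.042). The sign of *Ano1* turned to 0.12 under scaling by library total.

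Of 17 macrophage markers 3 were lower, against 8.72% of all genes, and 14 had no call. The median of -0.72 ran from -1.17 to -0.51 when single libraries were left out and was -0.01, with 1 of the 3 calls kept, under scaling by library total. The list summed to 379 to 689 CPM in *RiboTag* and 620 to 723 CPM in *ME*. *Cd68*, a lysosomal glycoprotein of macrophages, had no count in any *RiboTag* library and 27, 17 and 53 counts in *ME*, at least 9.7-fold lower against a floor of 3 counts per library. *Csf1r*, the receptor macrophages depend on, was not called, at 0.30 (adjusted p = 0.237), nor was *Adgre1*, the F4/80 antigen, at -0.95 (adjusted p = 0.191). Of 10 lymphocyte markers 1 had enough counts to be tested.

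Of 11 endothelial markers 1 was called higher, of 11 epithelial markers 1 lower, and of 9 mesothelial markers 1 higher and 1 lower, near the 10.7% and 8.72% of all genes. No red blood cell marker was called among the 4 tested, either by edgeR or by DESeq2, and 0 had an unadjusted p under 0.05. *RiboTag* library 1 held more mesothelial RNA, with 507 CPM over the list against 213 and 226 CPM in the other pulldown libraries and 260 to 272 CPM in *ME*. *Wt1*, a mesothelial transcription factor, followed it, at 81.6 CPM in that library and 16.8 and 18.2 CPM in the others, and was called higher (2.56 ± 0.63) where *Upk1b*, a uroplakin of mesothelium, was called lower (-2.94 ± 0.52).

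**Figure D4:**
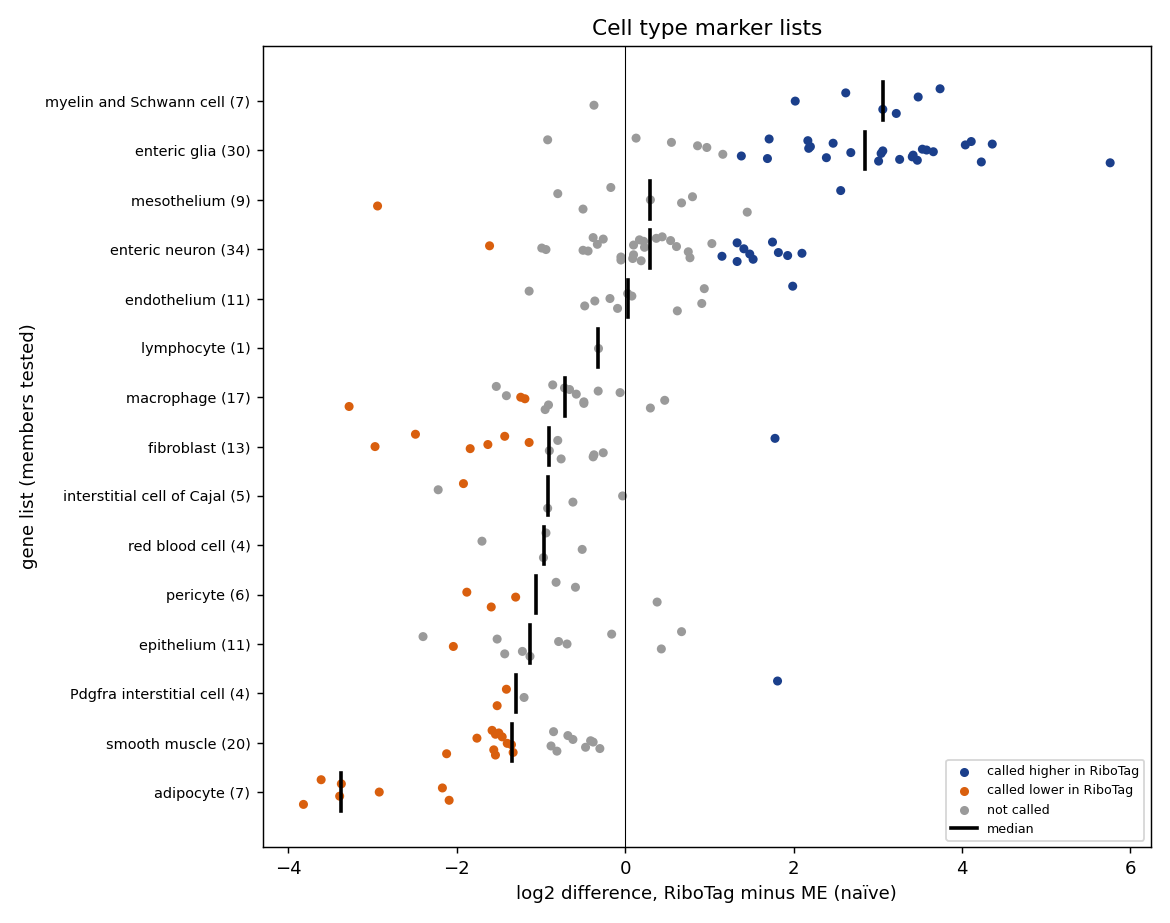
Log2 differences between naïve *RiboTag* and naïve *ME* for the members of each cell type marker list (x axis), 1 point per gene tested, with the median of each list marked. The enteric glia and myelin lists have medians of 2.85 and 3.06, the neuronal list lies near 0.30, and the smooth muscle and adipocyte lists have medians of -1.34 and -3.37.

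Classes of transcripts differed between the fractions too. Of 13 mitochondrially encoded mRNAs 12 were called lower, with a median of -2.32, or -1.55 and 8 calls kept under scaling by library total. *mt-Nd2*, a complex I subunit, was at 1881, 2125.3 and 3445.6 CPM in *RiboTag* and 19846.6, 11695.8 and 16909.3 CPM in *ME* (log2 difference -2.70 ± 0.31). These mRNAs are translated by mitochondrial ribosomes, which do not contain Rpl22. *mt-Co3* was the member not called, at -0.86 (adjusted p = 0.0207).

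A part of the ribosomal protein mRNAs was lower in the pulldown. Small subunit genes were lower in 18 of 32 tested, with a median of -1.06, and large subunit genes in 14 of 46, with a median of -0.63. Under scaling by library total these medians were -0.35 and 0.10, and 3 calls of each subunit were kept. *Rps29* had the lowest ratio of both lists, at 98.6, 169.8 and 179.5 against 1012.1, 683.7 and 1049.4 CPM (log2 difference -2.62 ± 0.27). *Rpl22*, the gene whose protein carries the tag, was itself lower, at 48.1, 74.3 and 66.6 against 274.5, 211.1 and 254.4 CPM (log2 difference -1.97 ± 0.21, adjusted p = 0.000415). Its paralogue *Rpl22l1* was at -1.70 ± 0.29. Processed pseudogenes can take reads of these genes, so their counts are uncertain.

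By GENCODE biotype, 8.98% of 12478 protein-coding genes were higher and 8.76% lower. Of 732 long noncoding genes 22.1% were higher and 2.6% lower, with a median of 0.75, and of 663 unspliced models still to be verified (TEC) 34.5% were higher and 0.151% lower, with a median of 1.48. Pseudogenes went the other way, with 5.64% of 621 higher and 22.9% lower and a median of -0.87. Among known long noncoding RNAs 4 of 12 were higher. *Malat1*, a nuclear RNA, was at 14622.3, 13242.4 and 25641.3 against 7274.7, 8694.8 and 7637.8 CPM (log2 difference 1.18 ± 0.28, lost under 4 of 15 alternatives), and *Meg3* was higher by 1.31 ± 0.26.

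These classes also fill the extremes of the whole table. Of the 15 genes with the largest ratio among 1291 eligible, 5 code for protein, *Acp4*, *Sox10*, *Ccdc36*, *Pou3f1* and *Chadl*, and 4 are long noncoding and 6 TEC models. Of these *Gm45483* was at least 39.8-fold higher, since its *ME* libraries were at or under 3 counts. Of the 15 with the lowest ratio among 1199 eligible, 8 are pseudogenes, 3 code for protein and 1 is the mitochondrial ribosomal RNA *mt-Rnr1*, at a log2 difference of -5.04 ± 0.32. *Gm48795* and *Rpl17-ps3* had no count in *RiboTag* and were at least 68.7-fold and 42.6-fold lower.

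The IM24h libraries, in which both fractions carry the same Cre line by their labels, gave another view of the naïve calls after surgery. There 14642 genes were tested, 882 (6.02%) were higher and 880 (6.01%) lower in *RiboTag*, and the median was -0.18. These counts moved with the settings, to 1532 and 1826 by DESeq2, 63 and 2111 without scaling, 54 and 428 by reference genes, and 131 and 793 by library total. Leaving out *ME* library 1, 2, 3 or 4 gave 468, 566, 442 and 439 higher and 352, 458, 315 and 302 lower genes, and leaving out *RiboTag* library 1 or 3 gave 1664 and 1618 lower genes. Values did not overlap for 1382 genes (9.44%) with *RiboTag* above and 2929 (20.0%) with *RiboTag* below *ME*. Of the 1575 genes higher in naïve mice 1412 were tested at IM24h, and 385 of them (27.3%) were called higher and 3 lower. A positive difference was seen in 1213 of the 1412 (85.9%), against 45.3% of all genes, and their median was 1.32. The 385 genes were 43.7% of those called at IM24h.

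Of the 1287 genes lower in naïve mice 1228 were tested, 334 (27.2%) were called lower and 11 higher, and 1108 (90.2%, against 54.7% of all genes) had a negative difference. The 334 genes were 38% of the 880 called lower. AY036118 took 59.5% and 58.5% of the counts in *RiboTag* libraries 2 and 3 at IM24h, and without both, a setting chosen after seeing the data, 601 of the higher and 618 of the lower naïve calls were called again. Leaving out *ME* library 1, 3 or 4 brought the 385 to 236, 229 and 233, and the 334 to 187, 177 and 153, whereas leaving out *RiboTag* library 3 brought the 334 to 509.

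Glial markers were read in the same libraries. Of 27 glial markers tested at IM24h 10 were called higher and 1 lower, *Cryab* at a log2 difference of -3.65, and the median was 2.18. *S100b* was at 233.6, 552.6, 605.3 and 342.1 CPM in *RiboTag* and 6.16, 9.83, 3.50 and 11.4 CPM in *ME*, without overlap (log2 difference 5.81 ± 0.51, adjusted p = 0.00058). *Gfap* was called at 3.45 ± 0.58. *Sox10* was not called, with 502.8, 45.2, 62.2 and 312.2 CPM against 35.0, 25.2, 64.4 and 65.4 CPM (log2 difference 2.28 ± 0.69, adjusted p = 0.0508). Its values in *RiboTag* libraries 2 and 3 lay within the *ME* range.

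On a scale common to all 14 libraries, *ME* held 16.8 ± 2.09 CPM of *Sox10* in naïve mice and 51.1 ± 22 CPM at IM24h, and 38.8 ± 3.95 and 8.31 ± 3.83 CPM of *S100b*. The difference in the *Sox10* ratio between the times was -3.41 on the log2 scale (edgeR interaction, adjusted p = 0.0962). Over 17390 genes tested for such a difference 95 passed an adjusted p under 0.05. Surgery, Cre line of the *ME* libraries and count table change together between the times and cannot be told apart.

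Other cell types were read at IM24h as well. Smooth muscle had 7 of 20 markers lower and 1 higher, with a median of -1.24 and *Acta2* at -2.34 ± 0.46, and macrophages, which enter the muscle layer after surgery, had 10 of 17 lower, with a median of -2.77. Neuronal markers were higher in 6 of 34, with a median of 0.16, and 11 of 13 mitochondrially encoded mRNAs were lower, with a median of -2.54. Of 4 members of the myelin and Schwann cell list tested at both times 0 were called by edgeR or DESeq2, 1 had an unadjusted p under 0.05, *Pmp22* on the lower side, and the median was 0.57. Of 6 adipocyte markers 2 were called lower, *Fabp4* and *Car3*, with a median of -1.47, while *Adipoq* and *Plin1* stood at 0.34 (adjusted p = 0.912) and 1.13 (adjusted p = 0.529) without a call. Whether these lists differ between the times was not tested. *Apoe*, enriched in naïve mice, was not called at IM24h, with a log2 difference of 0.50 (adjusted p = 0.556). Of the 25 protein-coding genes at each extreme in naïve mice, 21 of the higher set were tested at IM24h, all 21 with a positive difference and 9 called, and 20 of the lower set, 19 with a negative difference and 7 called.

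**Figure D5:**
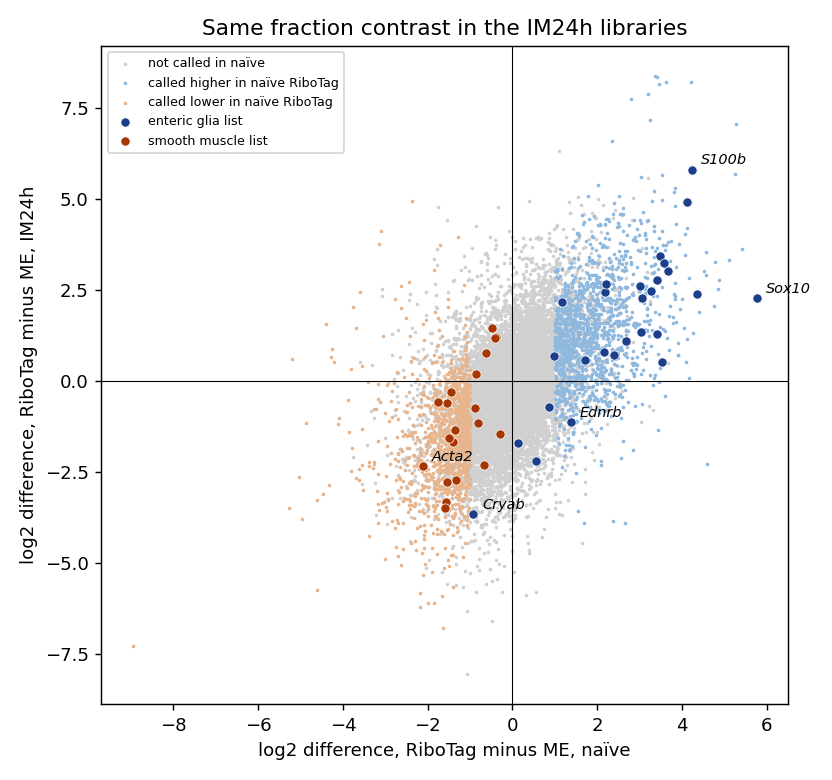
Log2 difference between *RiboTag* and *ME* in naïve mice (x axis) against that at IM24h (y axis) for 13259 of the 13484 genes tested at both times, with naïve calls coloured, leaving out 225 genes at or under 3 counts in every library of a group. Of 1396 naïve higher calls drawn 1198 lie above 0 on the y axis and of 1190 naïve lower calls drawn 1076 lie below it.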

How the data were processed

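RNA of small bowel muscularis externa was sequenced from the 3′ end (QuantSeq), as *RiboTag* pulldown or as total RNA input. The authors trimmed reads (cutadapt), aligned them to mm10 with STAR in Partek Flow and deposited estimated counts per transcript (*RiboTag*) and per gene (*ME*), not normalized and not always whole. Both tables list features with a total of at least 10. Library names match no sample title, so libraries were assigned to groups through the treatment column and fraction of each table and numbered by name order. Transcript counts were summed to gene symbols and rounded. Only shared symbols were kept. Symbols in 1 table took at most 0.157% of any library.

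Tests used edgeR 4.0.16 (TMM, filterByExpr, quasi-likelihood, Benjamini-Hochberg over all genes) in R 4.3.3, within each time and, for the interaction, over 14 libraries. A call needed an adjusted p under 0.05 and over 2-fold. SE is the log2 difference over the root of F. DESeq2 1.42.0, other scalings, filters, joins and leaving out libraries were alternatives. The scripts were checked on simulated counts. The 15 genes named in each direction were those with the largest difference among calls with no overlap and a mean of at least 10 CPM in 1 fraction; called list members were also named. Members, lists and named genes were chosen with earlier results of these data known. The floor of 3 counts covers counting error only. Biotypes were matched by symbol to GENCODE vM21 (GRCm38) for 14564 of 14753 genes. Some genes are not reported here by name.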

Additional observations from a re-analysis of the deposited data

Results flagged for a closer look

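Of the genes named, 6 had a ratio of *RiboTag* to *ME* that differed between IM24h and naïve mice by the edgeR interaction term (adjusted p under 0.05). *Scd1*, the fatty acid desaturase, had a log2 difference of -2.09 in naïve mice and -0.12 at IM24h, a change of 2.01 (adjusted p = 0.0488). *Ptn*, the heparin-binding growth factor pleiotrophin, had -0.58 and 1.76, a change of 2.39 (adjusted p = 0.0448), and the transcription factor *Ets1* had -0.34 and 2.90, a change of 3.28 (adjusted p = 0.0214). *Eng*, endoglin of endothelial cells, had a fitted change of -7.95 (adjusted p = 0.0448), with no count in any *RiboTag* library at IM24h, so that the fitted value is no bound. *Gm48795* and *Rpl17-ps3* had fitted changes of 11.49 and 9.56 (adjusted p = 0.0448 and 0.0214), with no count in naïve *RiboTag*. *Eng*, *Ets1* and *Ptn* were added to the named genes after this test was seen. Over all 17390 genes 49 changed upwards and 46 downwards.

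*Erbb3* in *ME* at IM24h had 1 library far from the others, with 16.5 CPM in library 2 and 7.67 to 8.46 CPM in the other 3 on the common scale, a gap of 0.911 of the range. Chance marks about 1 in 20 groups in this way. *Lrrc14b* was listed in the *RiboTag* table alone, with 98.9, 35.9 and 33.6 estimated counts in the naïve libraries, 168.4 in all, and was not compared.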

How the results depend on the processing

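Scaling by library total moved the naïve counts to 4350 higher and 337 lower, and reference genes (*Actb*, *Hsp90ab1*, *Rplp1*) the lower count to 791. The other naïve settings, DESeq2 with 1829 and 1519 among them, stayed within 1.5 times, and leaving out 1 library gave 828 to 1747 and 897 to 1815. At IM24h the counts were 131 higher by library total, 63 and 2111 without scaling, 54 and 428 by reference genes, 1532 and 1826 by DESeq2, 1362 and 2217 without *RiboTag* libraries 2 and 3 (chosen after seeing the data), and 439 to 1192 and 302 to 1664 with 1 library left out. Naïve calls found again at IM24h were 108 and 87 by library total, 47 and 640 without scaling, 43 and 123 by reference genes, 594 and 618 by DESeq2, 601 and 618 without those libraries, and 229 to 495 and 153 to 509 with 1 left out. The cause was not tested. Library-total scaling moved the median of all genes from -0.01 to 0.72, so values near 0 turned positive with it. Among the uncalled genes recomputed by name these were 6, *Ano1* to 0.12, *Clu* to 0.11, *Eng* to 0.35, *Ets1* to 0.38, *Pmp22* to 0.37 and *Ptn* to 0.14. Of 226 called genes that the naming rule covers, 137 kept the call under every naïve alternative run and 0 changed sign; over named genes, 250 values lost and 26 gained a call. List medians moved by less than the spread between libraries in 354 cases and by more in 66. With 3 libraries a fraction, genes near 3 counts were not resolved. No paired analysis was possible because library names match no sample title, so the replicate numbers in the titles could not be assigned to libraries. In naïve mice the fractions also carry different Cre lines on their labels.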

Other observations

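*Carmn*, a long noncoding RNA known from smooth muscle and pericytes and singled out after its values were seen, stood at 249, 141.9 and 192.5 CPM in naïve *RiboTag* and 8.34, 14.3 and 11.7 CPM in naïve *ME*, without overlap (log2 difference 4.10 ± 0.29, edgeR adjusted p = 8.2e-05). The smooth muscle protein genes *Acta2* and *Myh11* had -2.12 and -1.54 in the same libraries. At IM24h *Carmn* had a log2 difference of 0.53 (adjusted p = 0.767).

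Several symbols stood in the total RNA table alone and were not compared. *Gm10925* held 3873.3, 866.2 and 5504.7 estimated counts in naïve *ME*, *Gm15536* 378.1, 187.6 and 301.4, and the acute phase gene *Orm1* 87.3, 24 and 54.2.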
